A study of Homo sapiens with 24 samples.

Results

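The enzymes that make and cut the Notch receptor were followed as a set of 9 listed genes in 4 human T-cell acute lymphoblastic leukaemia lines exposed to NVS-ZP7-3, a small molecule, or to DMSO, the solvent. The genes were POFUT1, FURIN, ADAM10, ADAM17, NCSTN, APH1A, APH1B, PSENEN and PSEN2. They were picked by name, 9 of the 19775 genes that at least 1 probe set represents alone, and the brightest such probe set stood for each gene. The 24 arrays formed 8 groups of 3: the lines TALL-1, SUPT11, P12-ICHIKAWA and also RPMI-8402, each after 16 h with NVS-ZP7-3 and each after 16 h with DMSO. All cultures, the controls included, held 0.5% DMSO and began from the same number of plated cells. The labels give no dose, and each name stands for 1 established line, so nothing here speaks for other T-cell leukaemias. Values are log2 expression as deposited, with a floor of 2.18. Some probe sets instead held a recurring background value of their own above that floor, such as 4.25 for PSENEN.

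A Notch receptor is fucosylated in the endoplasmic reticulum (ER) by POFUT1 and cut by the convertase FURIN in the Golgi. At the cell surface an ADAM protease, ADAM10 or ADAM17, sheds the outer part, and gamma-secretase then cuts within the membrane and frees the intracellular domain that switches on target genes. Gamma-secretase joins a catalytic presenilin, such as PSEN2, with nicastrin (NCSTN), an APH1 subunit (APH1A or APH1B) and the small subunit PEN-2 (PSENEN). Activated Notch signalling drives many T-cell leukaemias, and NVS-ZP7 compounds are known as inhibitors of SLC39A7, a zinc transporter of the ER, that lower Notch signalling. The question was whether transcripts of this machinery fell where Notch targets fell.

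Falls among these transcripts were few: 1 gene in 1 line. In TALL-1, 4 of the 8 tested genes rose and none fell, and in RPMI-8402, 3 rose and 1 fell. In P12-ICHIKAWA 1 rose, and in SUPT11 none was called, with 1 of the 8 (APH1B) below an unadjusted p of 0.05 (limma). A gene was called at a Benjamini-Hochberg adjusted p below 0.05, taken over all 10661 tested genes, and all p-values below are limma's unless another test is named. The same rule called 41.9% of all tested genes in TALL-1 (22.3% higher, 19.6% lower), 36.6% in RPMI-8402 (15.1% higher, 21.5% lower), 7.89% in P12-ICHIKAWA (4.91% higher) and 1.76% in SUPT11 (1.18% higher). Counted in either direction, the 8 genes lie near these shares. The 4 of 8 that rose in TALL-1 and 3 of 8 in RPMI-8402 were above the shares called higher, a difference that was not tested. Treated arrays all lay above all DMSO arrays for 25.5% of tested genes in TALL-1, for 8.79% in SUPT11, for 11.9% in P12-ICHIKAWA and for 20.5% in RPMI-8402. The 8 genes had a median change of 0.22 for TALL-1, 0.02 for SUPT11, 0.04 for P12-ICHIKAWA and 0.10 for RPMI-8402, where all tested genes had 0, 0, 0 and -0.02. The labels do not say whether the 3 arrays of a group were separate cultures, so a p-value here reflects only how far these arrays scatter, and that scatter may be technical.

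Some arrays stood apart from the rest. The 3' minus 5' signal of ACTB, which grows as RNA is degraded, lay between 2.4 and 2.62 on treated arrays of TALL-1 against 1.96 to 2.08 with DMSO. In RPMI-8402 it lay between 2.28 and 2.6 on treated arrays against 2.06 to 2.2 with DMSO. By an exact two-sided permutation test p was 0.1 for each of these lines, the smallest value possible for 3 against 3. HBB, a red cell gene, was at 7.96 to 11.45 on treated P12-ICHIKAWA arrays against 2.18 to 2.29 with DMSO. LYZ, a myeloid gene, was at 8.01, 5.59 and 5.51 on these treated arrays against 2.28, 2.95 and 2.99 with DMSO. The other myeloid markers (CD14, CSF1R, MPO, S100A8 and S100A9) lay at or near the floor on these treated arrays. So did ALAS2, the other red cell marker with a probe set. LYZ also reached 12.54 on DMSO replicate 3 of RPMI-8402, 9.04 on treated replicate 1 of TALL-1 and 8.62 on DMSO replicate 2 of TALL-1. In RPMI-8402 with DMSO, 2 of the 6 myeloid markers averaged log2 4 or more. The part of HBB and LYZ in the results was not tested, beyond the fit with HBB as a covariate. In P12-ICHIKAWA that fit cannot separate HBB from treatment, as HBB did not overlap between treated and DMSO arrays. Of 11 T-cell leukaemia markers with a probe set, 8 to 10 averaged log2 4 or more in each group. Treated replicate 2 of TALL-1 carried 21 transcripts, and treated replicate 2 of SUPT11 carried 9, that were near the floor in the other 5 arrays of their line and bright in the other lines. DMSO replicate 3 of RPMI-8402 and treated replicate 1 of P12-ICHIKAWA carried 1 such transcript each. Without the 2 arrays with 21 and 9 and the RPMI-8402 array, which had the highest HBB and LYZ, no member gained or lost a call in any line, and the P12-ICHIKAWA array was kept. In RPMI-8402 HBB varied on arrays of both groups, at 10.48, 8.63 and 12.99 with NVS-ZP7-3 and at 9.42, 2.32 and 14.65 with DMSO.

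**Figure D1:**
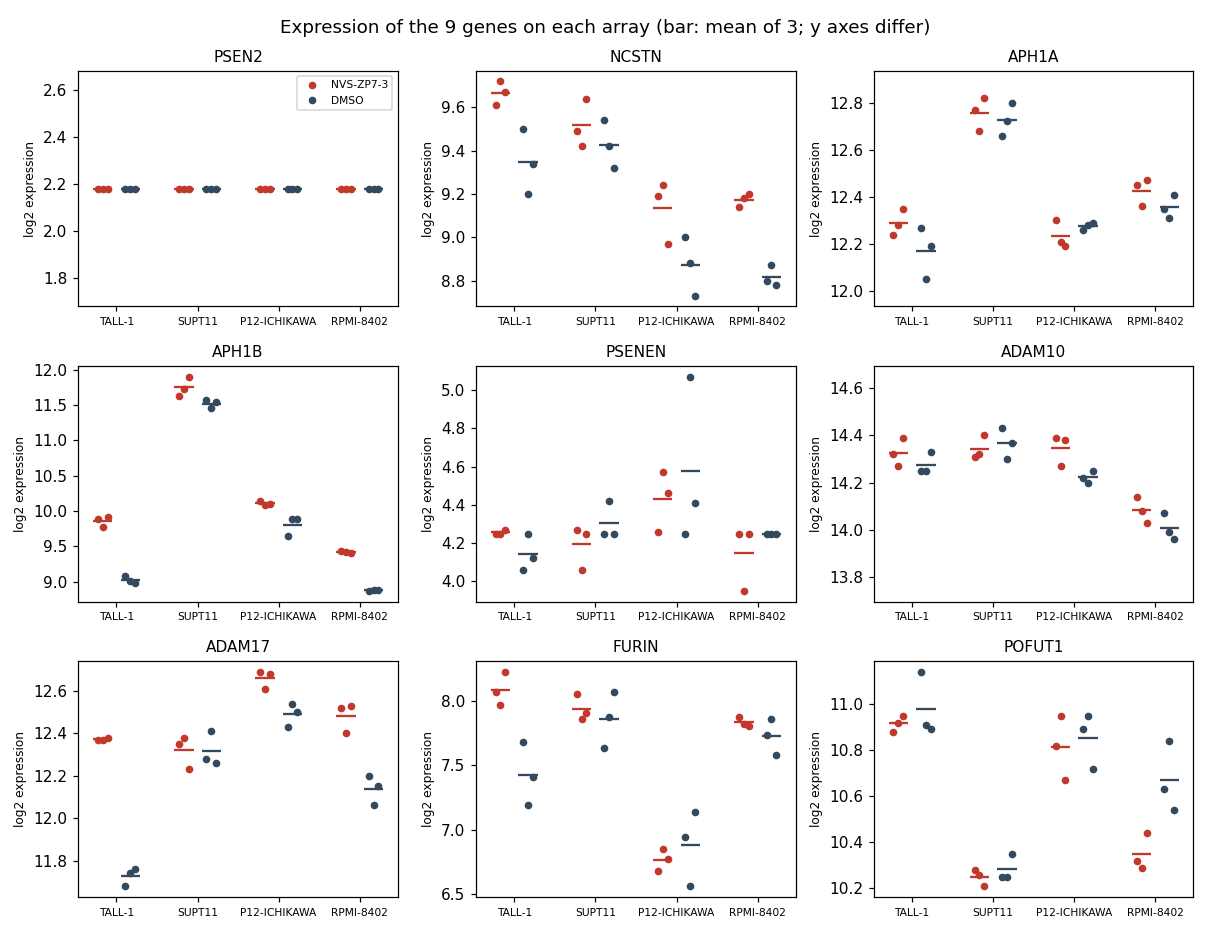
Log2 expression of the 9 genes on each of the 24 arrays, by line, with NVS-ZP7-3 to the left of DMSO; points are arrays and bars are means of 3, and the y axes differ between genes. Treated TALL-1 arrays lie above all DMSO arrays for APH1B, ADAM17, FURIN and NCSTN, and PSEN2 lies at 2.18 throughout.

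The upstream sequences of the 3 genes that rose in TALL-1 and have an entry in the RefSeq promoter table (build GRCh38.p14) are shown. Each is the 250 bases before the annotated start, on the strand of the gene and 5′ to 3′. Capitals mark the motifs found, written as this strand reads, so that a motif on the other strand appears as its reverse complement. APH1B was the other gene that rose.
NCSTN: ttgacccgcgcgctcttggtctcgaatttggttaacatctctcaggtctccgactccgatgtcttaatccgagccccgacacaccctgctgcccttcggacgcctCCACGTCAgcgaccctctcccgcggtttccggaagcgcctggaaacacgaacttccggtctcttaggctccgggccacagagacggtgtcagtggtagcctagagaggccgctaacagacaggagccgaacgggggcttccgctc
ADAM17: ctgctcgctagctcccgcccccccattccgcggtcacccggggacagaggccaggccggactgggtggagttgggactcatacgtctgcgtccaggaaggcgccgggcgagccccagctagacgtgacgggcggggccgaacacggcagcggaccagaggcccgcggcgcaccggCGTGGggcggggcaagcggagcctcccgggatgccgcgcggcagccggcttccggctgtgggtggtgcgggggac
FURIN: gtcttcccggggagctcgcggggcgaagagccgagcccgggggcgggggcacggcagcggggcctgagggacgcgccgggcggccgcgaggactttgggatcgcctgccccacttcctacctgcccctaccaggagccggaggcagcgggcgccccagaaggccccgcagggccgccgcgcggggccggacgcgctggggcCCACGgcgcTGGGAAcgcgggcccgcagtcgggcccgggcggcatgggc
They lie at chr1:160343133-160343382 (plus strand), chr2:9555831-9556080 (minus strand) and chr15:90871290-90871539 (plus strand). The motifs searched on both strands were the ER stress element (CCAAT and CCACG with 9 bases between), its CCACG part alone, the core TGACGTG of the unfolded protein response element, the cyclic AMP response element TGACGTCA, the ATF4 and CHOP composite site TGATGCAA and the RBPJ letters TGGGAA. In NCSTN the core TGACGTG lay 144 to 138 bases before the start and overlapped a CCACG at 145 to 141. The core stood in 2.19% of the same windows of 8820 tested genes and in none of the other 7 matched members. FURIN held TGGGAA at 40 to 35 bases and CCACG at 49 to 45, and ADAM17 held CCACG at 75 to 71. All 8 matched members held CCACG, against 45.1% of the windows of tested genes, and FURIN and PSENEN held TGGGAA, against 19.4%. None held the full ER stress element, the cyclic AMP element or the composite site, which stood in 0.136, 3.07 and 0.397% of the windows. A match of letters is a description and shows no binding.

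POFUT1, which adds O-fucose to the EGF-like repeats of Notch, was the only member that fell in any line. In RPMI-8402 it was at 10.32, 10.29 and 10.44 with NVS-ZP7-3 and at 10.63, 10.84 and 10.54 with DMSO. All treated arrays lay below all DMSO arrays, and the change was -0.32 ± 0.0857 (SE, 3 arrays a group; adjusted p = 0.00692). Without DMSO replicate 2 the change was -0.23 and the call was lost (adjusted p = 0.0535), and a fit of this line alone also lost it (adjusted p = 0.0584). In the other lines the changes were -0.07 in TALL-1, -0.03 in SUPT11 and -0.04 in P12-ICHIKAWA, with overlapping arrays. A difference in response among the lines was not shown (F test of the interaction, adjusted p = 0.17).

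FURIN, the convertase that cuts the receptor in the Golgi, rose in TALL-1. Treated arrays were at 8.07, 7.97 and 8.23 and DMSO arrays at 7.68, 7.19 and 7.41. The arrays did not overlap, and the change was 0.67 ± 0.139, which is 1.59-fold (adjusted p = 6.91e-04). Adjusted for the ACTB signal difference it was 0.50 and not called (adjusted p = 0.0939). In SUPT11, P12-ICHIKAWA and RPMI-8402 the changes were 0.08, -0.11 and 0.11, and treated and DMSO arrays overlapped. The response differed among lines (adjusted p = 0.0205), and that of TALL-1 was 0.64 ± 0.16 above the mean of the other 3 (adjusted p = 0.00546). Among all tested genes, 35.8% had a response that differed among lines, and the response of 1 line differed from the mean of the others in 28.6% for TALL-1, 15.2% for SUPT11, 8.38% for P12-ICHIKAWA and 18.5% for RPMI-8402.

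ADAM17, the protease also known as the TNF-alpha converting enzyme, rose in TALL-1 and RPMI-8402. In TALL-1 it was at 12.37, 12.37 and 12.38 with NVS-ZP7-3 and at 11.68, 11.74 and 11.76 with DMSO. These arrays lay far apart for their spread, with a change of 0.65 ± 0.0543 (1.57-fold, adjusted p = 2.13e-08). In RPMI-8402 it was at 12.52, 12.40 and 12.53 with NVS-ZP7-3 and at 12.20, 12.06 and 12.15 with DMSO. Again no array overlapped, and the change was 0.35 ± 0.0543 (1.27-fold, adjusted p = 5.95e-05). In P12-ICHIKAWA, treated arrays were at 12.69, 12.61 and 12.68 and DMSO arrays at 12.43, 12.54 and 12.50, and the change of 0.17 was not called (adjusted p = 0.0641). There it was called with the ACTB covariate (adjusted p = 0.0158) or an intensity trend (adjusted p = 0.0466), but not with the HBB covariate (adjusted p = 0.452). In SUPT11 the change was 0.005 ± 0.0543 with overlapping arrays. The response differed among lines (adjusted p = 1.97e-05), above the other lines in TALL-1 by 0.48 ± 0.0627 (adjusted p = 1.60e-05) and below them in SUPT11 (-0.38 ± 0.0627, adjusted p = 3.55e-04). A second ADAM17 probe set rose by 0.50 in TALL-1 and 0.30 in RPMI-8402 (adjusted p = 0.00116 and 0.0358, over all tested probe sets). The ADAM17 changes were as large with the ACTB covariate, at 0.81 in TALL-1 and 0.45 in RPMI-8402, both called.

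ADAM10, the main sheddase of ligand-bound Notch, was not called in any line at an adjusted p below 0.05, and P12-ICHIKAWA was below 0.05 unadjusted. There it was at 14.39, 14.27 and 14.38 with NVS-ZP7-3 and at 14.22, 14.20 and 14.25 with DMSO, a change of 0.12 ± 0.05 (adjusted p = 0.159). The other changes were 0.05 in TALL-1, -0.02 in SUPT11 and 0.08 in RPMI-8402, each with overlapping arrays. Its 2 other probe sets were not called in any line either. ADAM10 was bright on every array, between 13.96 and 14.43.

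APH1B, a gamma-secretase subunit that forms its own class of the complex, was higher with NVS-ZP7-3 on all treated arrays of all 4 lines, a pattern shared by 1.75% of tested genes. In TALL-1 it was at 9.88, 9.77 and 9.91 with NVS-ZP7-3 and at 9.08, 9.01 and 8.98 with DMSO. In RPMI-8402 it was at 9.43, 9.42 and 9.41 with NVS-ZP7-3 and at 8.87, 8.89 and 8.89 with DMSO. The rises were 0.83 ± 0.0685 (1.78-fold, adjusted p = 1.71e-08) in TALL-1 and 0.54 ± 0.0685 (1.45-fold, adjusted p = 5.76e-06) in RPMI-8402, and both were called with the ACTB covariate, at 0.92 and 0.60. In P12-ICHIKAWA it was at 10.14, 10.08 and 10.10 with NVS-ZP7-3 and at 9.64, 9.89 and 9.88 with DMSO. This rise of 0.30 ± 0.0685 was called (adjusted p = 0.00927), but was not with HBB as a covariate (0.28, adjusted p = 0.0822), in a fit of the line alone (adjusted p = 0.163) or without DMSO replicate 1 (0.22, adjusted p = 0.0551). In SUPT11 it was at 11.62, 11.73 and 11.90 with NVS-ZP7-3 and at 11.57, 11.45 and 11.54 with DMSO, and the change of 0.23 ± 0.0685 did not pass (adjusted p = 0.142), though it did without treated replicate 1 (0.29, adjusted p = 0.0388). On average over the lines APH1B rose by 0.48 ± 0.0342 (adjusted p = 2.49e-09), and its response differed among lines (adjusted p = 3.02e-04), above the mean of the other lines in TALL-1 (0.48 ± 0.0791, adjusted p = 1.72e-04) and below it in SUPT11 (-0.33 ± 0.0791, adjusted p = 0.00806).

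The other probe set of APH1B, dimmer on average, gave another picture. In SUPT11 it was at 9.16, 8.89 and 9.15 with NVS-ZP7-3 and at 8.85, 9.05 and 9.05 with DMSO. In the other lines its highest value was 3.05, near the floor, so it was bright in SUPT11 alone among these 4 lines. It showed no call in any line, and only in SUPT11 could a change be read. The first probe set was bright in all 4 lines. Which transcripts each probe set covers is not given in the sources used here, and the rises of APH1B rest on the brighter probe set.

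**Figure D2:**
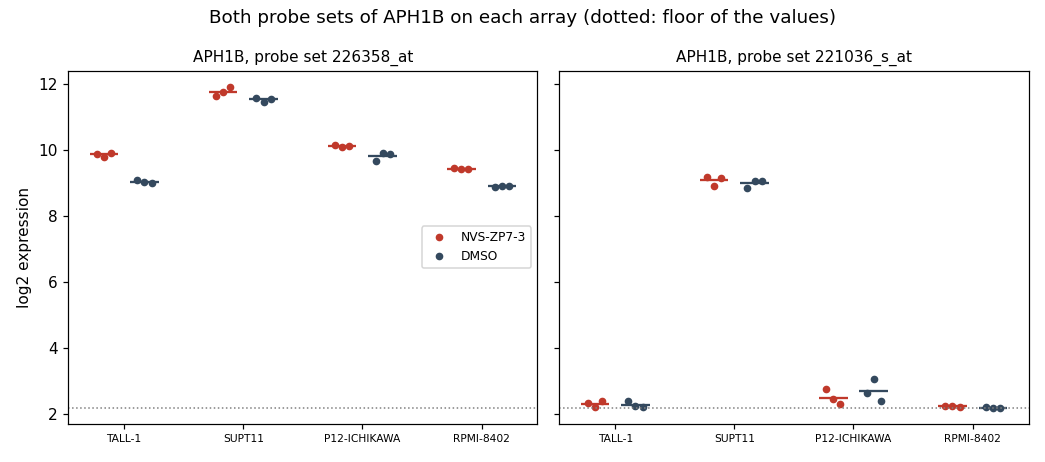
Log2 expression of both APH1B probe sets on each array, by line, with NVS-ZP7-3 to the left of DMSO; bars are means of 3 and the dotted line is the floor of 2.18. The brighter probe set, on the left, is higher with NVS-ZP7-3 in all lines, while the other, on the right, is at 8.85 to 9.16 in SUPT11 and at 3.05 or less in the other lines.

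Nicastrin (NCSTN), the large glycoprotein of gamma-secretase that holds its substrates, rose in TALL-1 and RPMI-8402. In TALL-1 it was at 9.61, 9.72 and 9.67 with NVS-ZP7-3 and at 9.5, 9.2 and 9.34 with DMSO, and in RPMI-8402 at 9.14, 9.18 and 9.20 with NVS-ZP7-3 and at 8.80, 8.87 and 8.78 with DMSO. No arrays overlapped in either line. The rises were 0.32 ± 0.0875 (adjusted p = 0.00576) and 0.36 ± 0.0875 (adjusted p = 0.00313). Adjusted for the ACTB signal difference they were 0.16 (adjusted p = 0.416) and 0.26 (adjusted p = 0.0762), and neither was called. In P12-ICHIKAWA the change of 0.27 ± 0.0875 was not called (adjusted p = 0.0742), and DMSO replicate 1, at 9.0, overlapped treated replicate 3, at 8.97. It was called without either of these arrays (0.33, adjusted p = 0.0426, and 0.35, adjusted p = 0.0289), with array weights (adjusted p = 0.0133), with quantile normalization (adjusted p = 0.0231) and with median centring (adjusted p = 0.0285). In SUPT11 it was 0.09. A difference in response among lines was not shown for NCSTN (adjusted p = 0.276), and its mean rise over the lines was 0.26 ± 0.0438 (adjusted p = 8.07e-05).

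APH1A, the paralog of APH1B, was not called in any line, nor at an unadjusted p below 0.05. Its change was 0.12 ± 0.0582 for TALL-1, 0.03 for SUPT11, -0.04 for P12-ICHIKAWA and 0.07 for RPMI-8402, with overlap of the arrays in each. In TALL-1 treated arrays were at 12.24, 12.28 and 12.35 and DMSO arrays at 12.27, 12.05 and 12.19, and without DMSO replicate 1 the rise was 0.17 and called (adjusted p = 0.0341). The other probe sets of APH1A, both dimmer, were not called in any line either. The brighter of them changed by -0.34 in RPMI-8402 (adjusted p = 0.105, over all tested probe sets). There its treated arrays, at 7.08 to 7.66, all lay below its DMSO arrays, at 7.73 to 7.9. The dimmer changed by -0.19 in RPMI-8402 and by 0.54 in P12-ICHIKAWA (adjusted p = 0.396 and 0.0509), with overlapping arrays in both. PSENEN could not be followed. Its probe set was at 4.25, within 0.001, on 12 of 24 arrays and at 5.07 at most, a recurring value from which no change can be read, and none was called. PSEN2 lay at 2.18 on all 24 arrays in each of its 3 probe sets and was not tested.

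**Figure D3:**
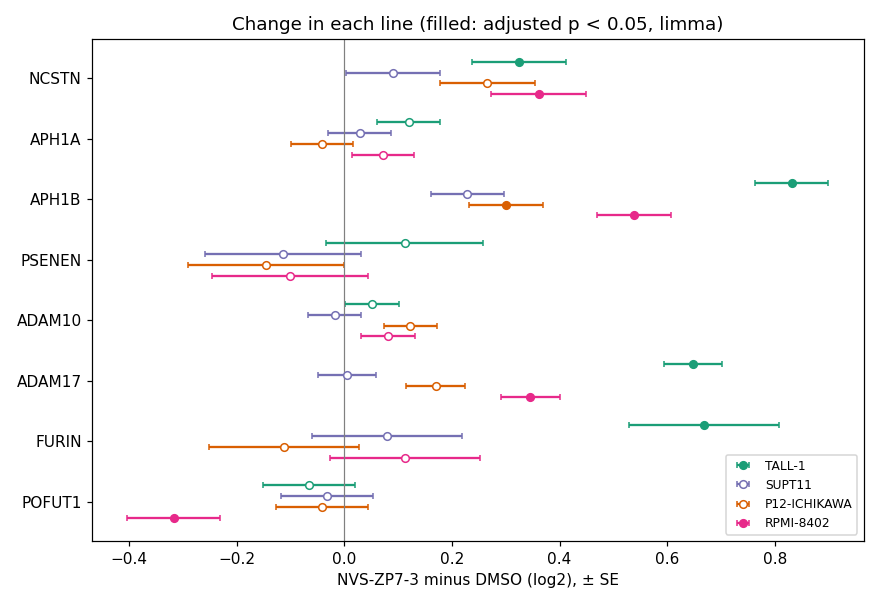
Change of the 8 tested genes with NVS-ZP7-3 against DMSO in each line, on the log2 scale with SE from limma; filled points have an adjusted p below 0.05. APH1B is above 0 in all lines, ADAM17 and NCSTN are called in TALL-1 and RPMI-8402, and POFUT1 in RPMI-8402 is the only called fall.

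The mean change over the lines was called in 5 of 8 members, against 46.9% of all tested genes (22.4% higher, 24.5% lower). APH1B, ADAM17 and NCSTN rose, by 0.48, 0.29 and 0.26. FURIN rose by 0.19 ± 0.0693 (adjusted p = 0.0334) and POFUT1 fell by 0.11 (-0.11 ± 0.0429, adjusted p = 0.0364), and these calls were lost when 1 array was left out for 8 of 24 arrays (FURIN) and 10 of 24 (POFUT1). ADAM10, at 0.06 ± 0.025, was just outside the threshold (adjusted p = 0.0604). It was called with an intensity trend (adjusted p = 0.0293), quantile normalization (0.0312), array weights (0.0471) or a replicate block over all lines (0.0442). Leaving out 1 array gave the call for 6 of 24 arrays. It was not called with the ACTB covariate (adjusted p = 0.24), the HBB covariate (0.124) or median centring (0.177).

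With DMSO, 7 members and, at its background value, PSENEN (adjusted p = 0.0497) differed among the lines by an F test, as did 96.3% of all tested genes. PSENEN was the member nearest the threshold, the count was 7 under several alternatives, and nothing is read from its level. Contrasts between pairs of lines called 78.9% of all tested genes (TALL-1 against SUPT11), 70.3% (TALL-1 against P12-ICHIKAWA), 70.8% (TALL-1 against RPMI-8402), 77.4% (SUPT11 against P12-ICHIKAWA), 79.7% (SUPT11 against RPMI-8402) and 65% (P12-ICHIKAWA against RPMI-8402). The order of the lines was not the same for each gene. APH1B was highest in SUPT11, at 11.52 ± 0.0666 (SD, n = 3), then at 9.80 in P12-ICHIKAWA, 9.02 in TALL-1 and 8.88 in RPMI-8402. The arrays of the last pair did not overlap, but their difference missed the threshold (adjusted p = 0.0715). SUPT11 was also highest for APH1A (12.73, then RPMI-8402 at 12.35, P12-ICHIKAWA at 12.28 and TALL-1 at 12.17, the neighbours among the last 3 not called apart). NCSTN was at 9.43 in SUPT11 and 9.35 in TALL-1, which were not called apart, and lower in P12-ICHIKAWA at 8.87 and RPMI-8402 at 8.81, again not called apart. ADAM17 was highest in P12-ICHIKAWA at 12.49, then at 12.31 in SUPT11, 12.14 in RPMI-8402 and 11.73 in TALL-1, and each neighbouring pair was called apart. ADAM10 ran from 14.36 in SUPT11 over TALL-1 and P12-ICHIKAWA to RPMI-8402, and the last step was called (adjusted p = 7.58e-04). FURIN was at 7.86 in SUPT11, 7.73 in RPMI-8402, 7.43 in TALL-1 and 6.88 in P12-ICHIKAWA, where the last step was called (adjusted p = 0.00164). POFUT1 was highest in TALL-1 at 10.98 and lowest in SUPT11 at 10.28, with the step from RPMI-8402, at 10.67, to SUPT11 called (adjusted p = 4.28e-04).

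The Notch receptors and targets, a list of 17 genes of which 13 were tested, were measured on the same arrays. Some passed the expression filter through other lines, so calls are counted among genes with a group mean of log2 4 or more in the line itself, as a description. By limma 10 of 12 such genes fell in TALL-1, 7 of 11 in RPMI-8402, 3 of 8 in P12-ICHIKAWA and 0 of 5 in SUPT11 (0 below an unadjusted p of 0.05), and none of them rose. Of the 5 in SUPT11, HES1 was at 5.17 on all arrays and PTCRA at 3.94 to 4.06, recurring values from which no change can be read. The others there were NOTCH2, MYC and SHQ1. PTCRA was at 3.94 to 4.06 in RPMI-8402 as well. IL7R averaged over log2 4 in RPMI-8402 only through DMSO replicate 3, at 6.97 against 2.53 and 2.92 on the other DMSO arrays. In TALL-1 IL7R changed by -0.83 without overlap of the arrays. It was not called there (adjusted p = 0.368), with an SE of 0.68 shared by all groups. Below log2 4, HEY1 in RPMI-8402, CR2 in P12-ICHIKAWA and HEY1 in SUPT11 were also called lower. NRARP, which feeds back on the pathway, changed by -1.91 in TALL-1, and NOTCH1 by -0.94 there. MYC changed by -1.37 in RPMI-8402 and also fell in TALL-1, and HES4 was called lower in both. Treated HES4 arrays lay between 2.21 and 3.04 in TALL-1 and between 2.21 and 2.54 in RPMI-8402, so close to the floor that no size of the fall is given. The background share of lower calls among all tested genes was 19.6% in TALL-1, 21.5% in RPMI-8402, 2.98% in P12-ICHIKAWA and 0.582% in SUPT11. HES1, a direct target, was at 9.47, 9.41 and 9.57 with NVS-ZP7-3 and at 10.32, 10.34 and 10.44 with DMSO in TALL-1. NOTCH3, a receptor whose gene is itself a Notch target, was at 5.51, 5.29 and 4.89 with NVS-ZP7-3 and at 8.46, 8.04 and 8.47 with DMSO in P12-ICHIKAWA. In that line, where NOTCH3 changed by -3.09 and DTX1 by -3.86 (treated DTX1 arrays at 3.95, 4.72 and 3.08), the differences of the processing genes other than PSENEN lay between -0.11 and 0.30, and the called member was a rise. CR2 changed by -3.54 in RPMI-8402, and the differences of the processing genes there lay between -0.32 and 0.54. In SUPT11, HEY1 averaged 2.58 with NVS-ZP7-3 and 3.81 with DMSO. NRARP, DTX1 and NOTCH3 lay at or near the floor in that line, as did NOTCH1 with DMSO (2.45), so a fall in them could not be seen. The measurements are of transcripts, and protein, cleavage and place in the cell were not measured.

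**Figure D4:**
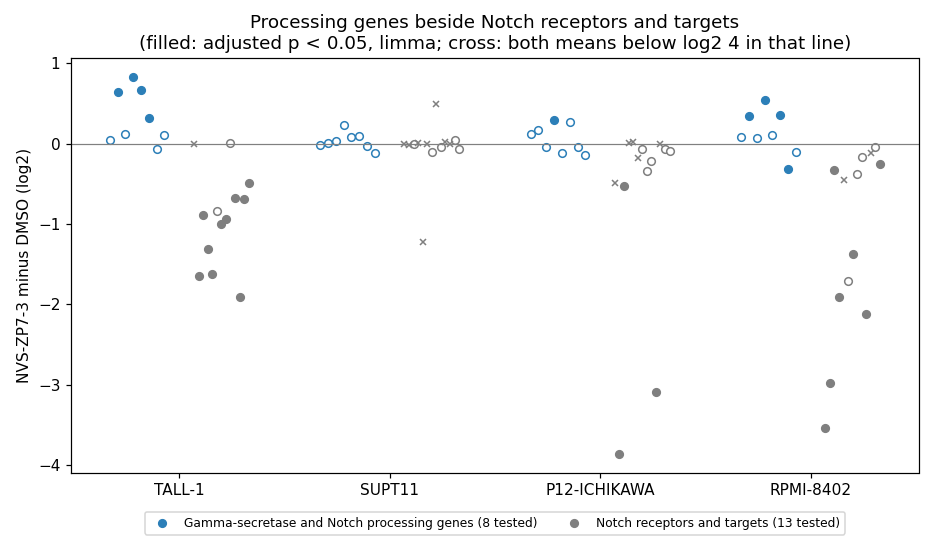
Change with NVS-ZP7-3 against DMSO (log2) in each line for the 8 tested processing genes, on the left, and the 13 tested Notch receptors and targets, on the right; each symbol is a gene, filled where the adjusted p is below 0.05, and crosses are genes with both group means below log2 4 in that line. Filled points of the Notch list all lie below 0, and of the processing genes POFUT1 in RPMI-8402 is the only filled point below 0.

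Other genes of the pathway were given by lists, whose counts are read against 22.3% of all tested genes higher and 19.6% lower in TALL-1, and 15.1% higher and 21.5% lower in RPMI-8402. Among other intramembrane proteases and factors linked to gamma-secretase, 7 of 9 tested rose in TALL-1, and 4 rose and 1 fell in RPMI-8402. HM13, the signal peptide peptidase, an ER protease of the presenilin family, was at 12.27 with NVS-ZP7-3 and 10.65 with DMSO in TALL-1, a rise of 1.62 ± 0.0793 (adjusted p = 1.65e-11), and rose by 1.23 ± 0.0793 in RPMI-8402. TMED10, a cargo receptor between ER and Golgi, rose by 0.14 in TALL-1 and 0.44 in RPMI-8402. BSG, basigin, fell by 0.58 (-0.58 ± 0.108) in RPMI-8402.

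Of the glycosylation enzymes besides POFUT1, 1 of 9 tested rose and 4 fell in TALL-1, and 2 rose and 2 fell in RPMI-8402. EOGT, which adds O-GlcNAc to EGF-like repeats, rose by 0.84 ± 0.225 in RPMI-8402 (adjusted p = 0.00641). XXYLT1, a xylosyltransferase, changed by -0.51 in TALL-1 and -0.43 in RPMI-8402, both called. LFNG, the lunatic fringe enzyme that extends the fucose laid down by POFUT1, changed by -1.47 ± 0.398 in RPMI-8402 (adjusted p = 0.00706).

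Partners and inhibitors of the ADAM proteases gave few calls: by limma 0 of 7 in TALL-1, with 0 below an unadjusted p of 0.05, 1 higher and 1 lower in RPMI-8402 and 1 lower in P12-ICHIKAWA. TSPAN5, a tetraspanin that escorts ADAM10, rose by 0.35 in RPMI-8402 and TSPAN33, another, changed by -0.67 there. TIMP1, a metalloproteinase inhibitor, changed by -0.52 in P12-ICHIKAWA. TIMP2, of the same family and chosen after its values were seen, averaged 13.54 ± 0.0209 with NVS-ZP7-3 and 14.02 ± 0.0393 with DMSO in TALL-1 (SD, n = 3 each), without overlap. It was not called (adjusted p = 0.682), with an SE of 0.741 shared by all groups, of which treated SUPT11 had an SD of 2.7 around 5.80, against 3.13 ± 0.308 with DMSO (adjusted p = 0.0899). Among other ADAM proteases, ADAM9 rose by 0.52 in TALL-1 and by 0.18 in RPMI-8402. ADAM19 changed by -1.99 and -2.06 in these lines, near the floor with NVS-ZP7-3, with means of 2.47 and 4.46 in TALL-1 and 2.61 and 4.67 in RPMI-8402 (NVS-ZP7-3, then DMSO, in each), where the DMSO SD in RPMI-8402 was 1.07. None of 3 other convertases was called in any line by limma, with 1 below an unadjusted p of 0.05 in RPMI-8402, and JAG1, the sole ligand tested, was not called.

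Of the nuclear complex and turnover genes, 1 of 16 tested rose and 2 fell in TALL-1, and 5 rose in RPMI-8402. MIB2, a ubiquitin ligase of Notch ligands, rose in TALL-1, P12-ICHIKAWA and RPMI-8402, by 0.32, 0.26 and 0.37. DTX3, of the Deltex family, rose by 0.87 and MAML3, a coactivator, by 0.60 in RPMI-8402. The 2 that fell in TALL-1 were MAML1, of the same family as MAML3, at -0.45 (adjusted p = 6.59e-05) and SPEN at -0.25 (adjusted p = 0.024).

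The gene whose pattern over the 24 arrays was most like each member is given as a description, since arrays share lines and treatments. It was NPC1 for NCSTN (Pearson r = 0.937), LDAF1 for APH1A (0.968), RHOF for APH1B (0.979), BCDIN3D for ADAM10 (0.924), PTDSS1 for ADAM17 (0.932), PARP16 for FURIN (0.929) and QSOX2 for POFUT1 (0.964). For PSENEN it was MIR924HG (0.792), from which nothing is read, as its probe set held the recurring value on 12 of 24 arrays.

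The part of RNA integrity in the rises of TALL-1 and RPMI-8402 was not tested, beyond a fit adjusted for the ACTB signal. In both lines the ACTB signal of treated and DMSO arrays did not overlap, so that fit cannot separate RNA integrity from treatment. Calls kept or lost in it are given as a description. In that fit APH1B and ADAM17 rose in both lines, while NCSTN was called in neither and FURIN was not called in TALL-1. With HBB as a covariate, all 4 were called in TALL-1.

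**Figure D5:**
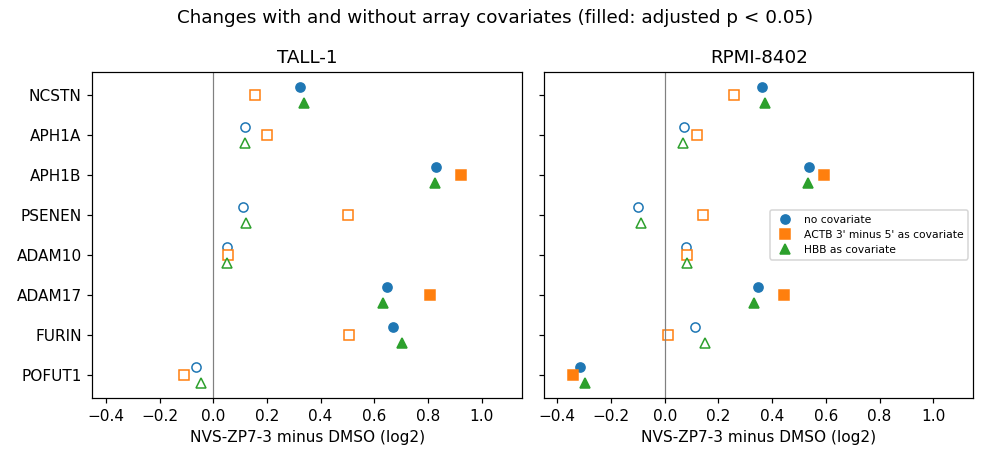
Change with NVS-ZP7-3 against DMSO (log2) of the 8 tested genes in TALL-1 and RPMI-8402, without a covariate (circles), with the ACTB 3' minus 5' difference (squares) and with HBB (triangles); filled symbols have an adjusted p below 0.05. APH1B and ADAM17 are filled in all 3 fits in both lines, and NCSTN is at 0.16 in TALL-1 with the ACTB covariate.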

How the data were processed

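RNA was measured on 24 Affymetrix arrays. Per the labels' protocols, RNA was isolated with a Qiagen kit and biotin-labelled cRNA made with the 3' Plus protocol. The authors deposited log2 expression values of 54675 probe sets, and GCRMA and limma are named, with no settings, per the submitters' processing notes. Precision depends on how many arrays there were and on signal over the floor. Gene names came from the platform annotation and a RefSeq table of GRCh38.p14 (41097 with 1 gene, 1801 with several, 11777 with none listed). The test took genes that reached log2 4 on 3 arrays (10661 genes, 8 of the 9 members). A model of 8 group means was fitted in R 4.3.3 by limma 3.58.1, with moderated variances and 16 residual degrees of freedom, and Benjamini-Hochberg adjustment over all tested genes. The build behind the deposited values is not given in the sources used here. The steps were tested on simulated arrays. The members and lists were chosen with earlier results of these data known. All members were named, with 8 Notch genes, up to 3 called genes per other list with the largest mean change and the most alike gene of each member. CR2, IL7R, MAML1, SPEN and the genes that neighbour members were named after their values were seen. Alternatives were other filters, probe set choices, normalizations, blocks, weights, covariates, thresholds and left-out arrays.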

Additional observations from a re-analysis of the deposited data

Results flagged for a closer look

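The responses of 3 members to NVS-ZP7-3 differed among the 4 lines by limma's F test of the interaction, against 35.8% of all tested genes, a share that 3 of 8 is near: ADAM17 (adjusted p = 1.97e-05), APH1B (adjusted p = 3.02e-04) and FURIN (adjusted p = 0.0205). The change was highest in TALL-1 for each, at 0.65, 0.83 and 0.67, and in SUPT11 it was 0.005, 0.23 and 0.08. Treated TALL-1 arrays also had the widest shift in ACTB 3' minus 5' signal, 0.49 against 0.30 in RPMI-8402, 0.04 in P12-ICHIKAWA and 0.05 in SUPT11. With that signal as a covariate, the TALL-1 changes were 0.81 for ADAM17 and 0.92 for APH1B, both called, and 0.50 for FURIN, not called. The ACTB signal of treated and DMSO arrays did not overlap in TALL-1, so that fit cannot separate the shift from treatment there. Beyond that fit, the part of the shift in these differences was not tested.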

How the results depend on the processing

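Limma called 4 members for TALL-1, 4 for RPMI-8402, 1 for P12-ICHIKAWA, 0 for SUPT11 (1 at an unadjusted p below 0.05) and 5 for the mean of all lines. In TALL-1 the ACTB covariate left 2. In P12-ICHIKAWA 0 were called with the mean of all probe sets of a gene, with the line fitted alone or with HBB as covariate, 2 with quantile normalization, median centring, an intensity trend, array weights or the ACTB covariate, and 3 at an adjusted p below 0.1. In SUPT11 array weights gave 1 (APH1B). On average over the lines 3 were called without a filter, at an adjusted p below 0.01, with the ACTB covariate and with the replicate number as a block within each line. That replicate block changed no other count by over 1.5 times. Same-numbered arrays of a line deviated together (a correlation over 0.1) in 2 of 12 pairs (-0.14 to 0.42). Of the 12 treated arrays, 5 deviated most like the DMSO array of their own number. The labels do not say what the number stands for, so this check cannot settle whether such arrays were paired. Leaving out each array in turn gave 4 to 5 for TALL-1, 3 to 4 for RPMI-8402, 1 to 2 for P12-ICHIKAWA, 0 to 1 for SUPT11 and 3 to 6 for the mean, 2 to 3 with a response that differs among lines and 7 to 8 with a DMSO level that differs. The single called change that turned direction was APH1B in P12-ICHIKAWA on its second probe set (-0.19, not called). That probe set passed the filter through SUPT11 and lay at 2.28 to 3.05 in P12-ICHIKAWA, near the floor. No change can be read from it there, and the mean of all probe sets of APH1B includes it. Of 1611 single-gene changes under all alternatives, 1510 kept direction and side of the threshold, 41 lost a call, 23 gained one and 36 turned direction without a call either way. Leaving out the 3 arrays with transcripts foreign to their line, chosen after seeing the data, took the call from FURIN on average over the lines (adjusted p = 0.0542) and from no member in a line. Where not stated above, the cause was not tested. Probe sets near background limit PSENEN and PSEN2.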

Other observations

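Members with a gene that starts close by on the opposite strand were looked up after the values were seen, within 1500 bases in the RefSeq promoter table. COPA, a subunit of the COPI coat that returns cargo to the ER, starts 133 bases from NCSTN. COPA was at 12.95, 12.86 and 12.79 with NVS-ZP7-3 and at 12.22, 12.17 and 12.25 with DMSO in TALL-1, and at 12.42, 12.50 and 12.34 with NVS-ZP7-3 and at 11.81, 11.82 and 11.71 with DMSO in RPMI-8402. It rose by 0.66 ± 0.0598 and 0.64 ± 0.0598 (limma adjusted p = 6.23e-08 and 1.21e-07), and was not called in SUPT11 (-0.04) or P12-ICHIKAWA (0.06). NCSTN was called in the same 2 lines, at 0.32 and 0.36, though in neither with the ACTB covariate. In P12-ICHIKAWA, where COPA changed by 0.06, NCSTN changed by 0.27 without a call. A difference in the response of NCSTN among lines was not shown (limma F test of the interaction, adjusted p = 0.276). Matching calls thus do not show matching responses.

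PLAGL2, a zinc finger protein gene, starts 137 bases from POFUT1. In RPMI-8402 PLAGL2 was at 11.66, 11.69 and 11.75 with NVS-ZP7-3 and at 11.97, 11.96 and 11.94 with DMSO, a change of -0.25 ± 0.0631 (limma adjusted p = 0.00379) beside the fall of POFUT1. In TALL-1 PLAGL2 changed by -0.51 ± 0.0631 (limma adjusted p = 2.77e-06), where POFUT1 changed by -0.07 and was not called. U2AF1L4, a splicing factor gene that starts 233 bases from PSENEN, was at 6.80, 6.76 and 7.17 with NVS-ZP7-3 and at 5.68, 5.24 and 5.57 with DMSO in TALL-1, and rose by 1.41 ± 0.232 there. The probe set of PSENEN gave no reading beside it.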
